A study of Mus musculus with 10 samples.

Results

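Heme is built in a chain of enzymatic steps that starts and ends in mitochondria, and the fetal liver holds both red cell precursors and hepatocytes, which each make it in large amounts. Erythroblasts, the hemoglobin-making red cell precursors that mature in the fetal liver, use the X-linked first enzyme Alas2, whereas hepatocytes and most other cells use its housekeeping counterpart Alas1. In erythroblasts the enzymes rise with maturation under Gata1 and its partners, and in hepatocytes Alas1 is known to be held down by heme and raised by nuclear receptors and by Ppargc1a. The genes described here are the 9 rows of the count table that map to Alas1, Alas2, Alad, Uros, Urod, Cpox, Ppox, Fech and Slc25a38, out of 55401 rows, and all 9 passed the filter on low counts that left 14098 genes for testing.

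Livers came from 10 female mouse fetuses at E18.5, of which 5 were WT and 5 were littermates with a deletion of Mir483 inherited from the father (Mir483Pat-KO). The deletion is constitutive, was made by Cre recombination in embryonic stem cells and was kept on a C57BL/6J background, so every cell type of the fetus carries it. Mir483 is a microRNA gene within an intron of Igf2, and its paternal copy is the active one. Mir483 had 10 to 22 counts in each WT library and 0 counts in each Mir483Pat-KO library, where a count of 0 allows up to 3.

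Libraries held 10831350 to 14765880 counts. Expression is given as CPM, counts scaled to library size with TMM factors, fold changes are Mir483Pat-KO over WT on the log2 scale with their standard error (SE), and adjusted p-values are from the edgeR quasi-likelihood test with Benjamini-Hochberg correction over all genes tested. A gene passed at an adjusted p under 0.05. The sample numbers in the labels fell into a lower range with 4 WT and 2 Mir483Pat-KO libraries and an upper range with 1 WT and 3 Mir483Pat-KO libraries. The upper range holds WT replicate 5 and Mir483Pat-KO replicates 3 to 5. What the ranges mark is not stated, and values within the lower range are given for the 9 genes and for the genes of the iron supply, heme handling, regulator, erythroblast and hepatocyte lists that passed. The liver label was checked against markers of both compartments: globins took 1.19% to 2.21% of the counts and 14 hepatocyte markers took 25.5% to 29.6%.

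The mature Mir483 products are shown because they are what the deletion removes, with the seed (bases 2 to 8) in capitals. The sequences are from RefSeq (GRCm38.p6), on the minus strand of chromosome 7 at chr7:142654932-142654952 for the 3p arm and chr7:142654968-142654989 for the 5p arm.
miR-483-3p: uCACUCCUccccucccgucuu
miR-483-5p: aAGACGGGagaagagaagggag
No 3′ UTR of the 9 genes held the 7-base match of the 3p seed, AGGAGTG, which 10.7% of 21018 genes with an annotated 3′ UTR held. The match of the 5p seed, CCCGTCT, occurred once, in Cpox, at base 126 of its 1629-base 3′ UTR, and in 2.68% of all genes. It is shown in capitals with its flanks because Cpox is also a gene that passed the test.
Cpox site: ctgggcacCCCGTCTgtggcagg
The longest annotated 3′ UTR was searched, and a match of letters is a description rather than a tested target.

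Alas1 fell in Mir483Pat-KO liver, Cpox and Fech rose, and the other 6 genes, the erythroid Alas2 among them, had higher means that did not pass the test. Alas1 decreased by 0.36 on the log2 scale, Cpox increased by 0.24 and Fech by 0.34. Thus 2 of the 9 passed as higher and 1 as lower, against 2.43% of all tested genes higher and 2.76% lower. No member also exceeded a 1.5-fold change, a call that 1.23% of all genes met. The log2 fold change was above 0 for 8 of the 9, with a median of 0.17 over the 9, against 50.9% of all genes and a median of 0.0042. The 9 genes are not independent of each other, since their levels were correlated across libraries.

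Alas1, the housekeeping first enzyme that condenses glycine and succinyl-CoA, lies on chromosome 9 (chr9:106233455-106248654, GRCm38, minus strand). In the 5 WT libraries it measured 52.6, 51.4, 47.8, 45.1 and 45.7 CPM. In the 5 Mir483Pat-KO libraries it measured 43.9, 40.1, 33.0, 33.0 and 39.4 CPM. Every Mir483Pat-KO value lay below every WT value, a separation that 3.26% of all genes showed. The Mir483Pat-KO mean of 37.9 ± 4.75 CPM compared with 48.5 ± 3.36 for WT (SD, n = 5 each), and the log2 fold change was −0.36 (SE 0.0863, edgeR adjusted p = 0.0273). The gene had 366 to 668 counts per library, and 7.53% of its exon length overlaps a gene on the other strand, 4930500F10Rik. Without Mir483Pat-KO replicate 3 or 4 the edgeR adjusted p was 0.0586 or 0.0710, and with offsets for GC content and length it was 0.0772.

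Alas2, the erythroid first enzyme, whose loss causes sideroblastic anemia, lies on the X chromosome (chrX:150547375-150570638, GRCm38, plus strand). The WT libraries measured 920, 857, 974, 1090 and 953 CPM, and the Mir483Pat-KO libraries 1035, 1047, 1141, 1161 and 1174 CPM. The 3 highest values were Mir483Pat-KO replicates 3 to 5, while replicates 1 and 2 lay within the WT range. The means were 959 ± 85.7 and 1112 ± 65.6 CPM (SD, n = 5 each), and their log2 fold change of 0.21 (SE 0.0750) did not pass in edgeR (adjusted p = 0.107). It passed with DESeq2 (adjusted p = 0.0468) and in edgeR with GC content and length offsets (adjusted p = 0.0256). Of its exon length, 15.5% overlaps Apex2 and Mir3620 on the other strand, and the strand setting of the counting is not stated.

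**Figure D1:**
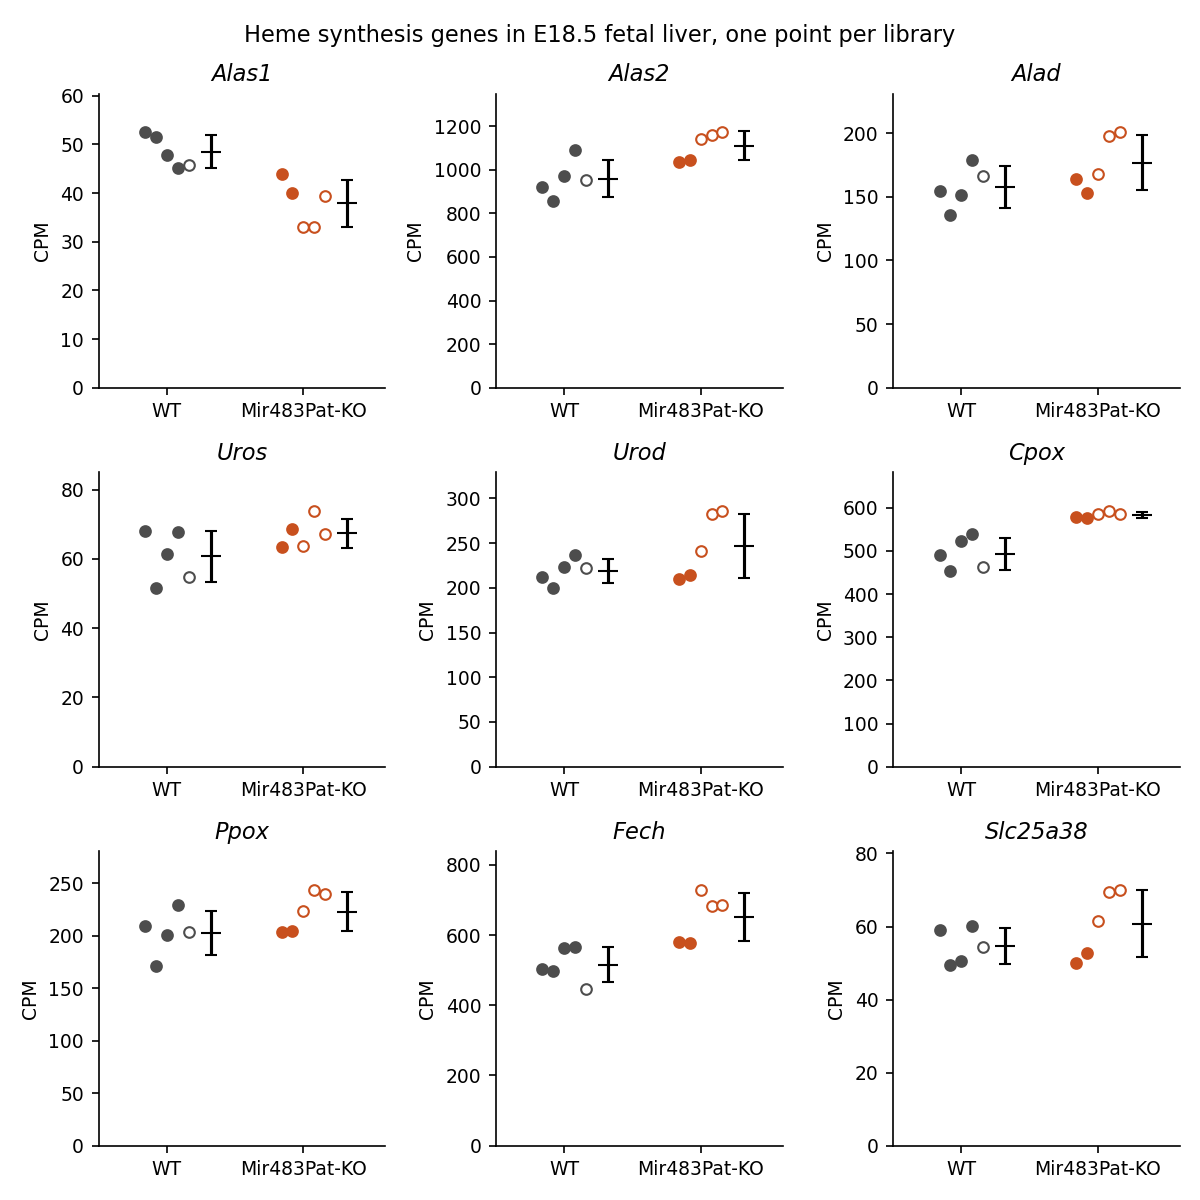
CPM (y axes, from 0) of each of the 9 genes in the 5 WT (grey) and 5 Mir483Pat-KO (orange) libraries, with filled points for the lower and open points for the upper range of sample numbers, and the mean and SD beside them. The groups do not overlap for Alas1, which is lower in Mir483Pat-KO, nor for Cpox and Fech, which are higher.

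Alas2 outnumbered Alas1 in every library, and by more in Mir483Pat-KO. Alas2 had 17.5, 16.7, 20.4, 24.2 and 20.9 counts per Alas1 count in the WT libraries. The ratio was 23.6, 26.1, 34.5, 35.2 and 29.8 in the Mir483Pat-KO libraries. In 4 of 5 Mir483Pat-KO libraries it exceeded the highest WT value, and replicate 1 lay just under it. The mean ratio was 29.9 ± 5.08 for Mir483Pat-KO against 19.9 ± 2.98 for WT (SD, n = 5 each), which is 1.49-fold higher by the mean log2 ratios (two-sided exact permutation test over all arrangements of the libraries, p = 0.0159, smallest possible 0.00794). Because both genes come from the same library, this ratio does not depend on the scaling. Within the lower range of sample numbers the difference of the mean log2 ratio was 0.35 rather than 0.58, with an exact permutation p of 0.20 where 15 arrangements allow no p under 0.0667.

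**Figure D2:**
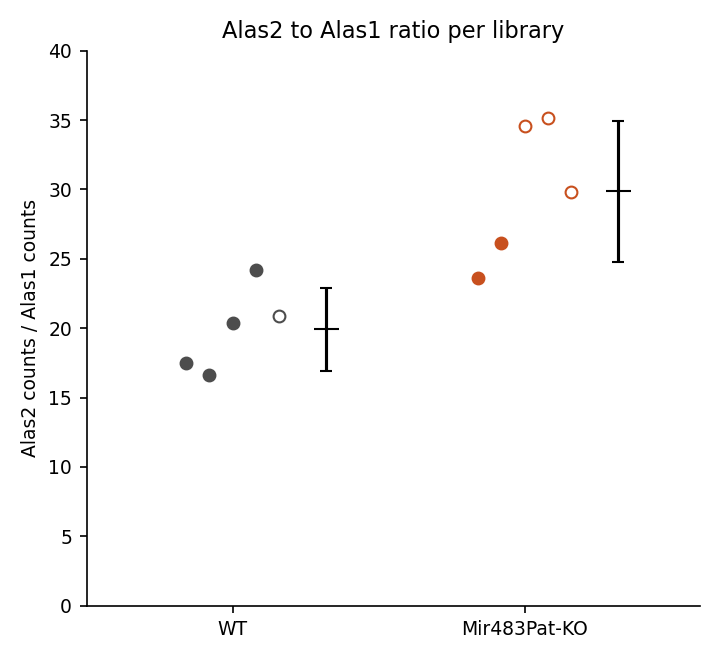
Alas2 counts divided by Alas1 counts (y axis, from 0) in each WT (grey) and Mir483Pat-KO (orange) library, with filled points for the lower and open points for the upper range of sample numbers, and the mean and SD beside them. Mir483Pat-KO replicates 3 to 5 have the highest ratios, from 29.8 to 35.2.

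Slc25a38, the mitochondrial carrier that brings glycine to the first step, ranged over 49.4 to 60.1 CPM among WT libraries and 50.1 to 70.0 CPM among Mir483Pat-KO libraries. Its log2 fold change was 0.15 (SE 0.0975, edgeR adjusted p = 0.379). The 3 highest values were those of Mir483Pat-KO replicates 3 to 5, and replicates 1 and 2 lay among the lower WT values. Without Mir483Pat-KO replicate 4 or 5 the log2 fold change of Slc25a38 was 0.093 or 0.088.

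The cytosolic enzymes had higher means in Mir483Pat-KO, none of which passed. Alad, which joins aminolevulinic acid molecules to porphobilinogen, measured 135 to 179 CPM among WT libraries and 153 to 201 CPM among Mir483Pat-KO libraries (log2 fold change 0.17, SE 0.0906, edgeR adjusted p = 0.297). Among the 19 alternatives it passed only with GC content and length offsets, at an adjusted p of 0.0418 in edgeR. Uros, which closes the tetrapyrrole ring, measured 51.6 to 68.2 CPM and 63.6 to 73.9 CPM (0.15, SE 0.0834, edgeR adjusted p = 0.306). Urod, which decarboxylates uroporphyrinogen, had means of 219 ± 13.7 and 247 ± 36.3 CPM (SD, n = 5 each, log2 fold change 0.17, SE 0.0908, edgeR adjusted p = 0.275). The groups overlapped for all of these, with 2, 2 and 3 Mir483Pat-KO libraries above the highest WT library. The log2 fold changes were 0.11 (Alad) and 0.094 (Uros) without WT replicate 2, 0.11 (Urod) without Mir483Pat-KO replicate 4, and 0.11 (Alad and Urod) without Mir483Pat-KO replicate 5.

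The late mitochondrial enzymes held both of the genes that rose. Cpox, which oxidizes coproporphyrinogen, lies on chromosome 16 (chr16:58670292-58717636, GRCm38, plus strand). WT libraries measured 491, 453, 523, 539 and 463 CPM, and Mir483Pat-KO libraries 578, 577, 585, 593 and 585 CPM. All 5 Mir483Pat-KO values lay above all WT values, as for 3.34% of all genes. Their SD was 6.37 against 37.1 CPM for WT, a difference in spread that was not tested. The mean was 583 CPM against 494 CPM for WT, and the log2 fold change was 0.24 (SE 0.0658, edgeR adjusted p = 0.0448). The call was close to the threshold: it was lost when any 1 of the 10 libraries was left out, with edgeR adjusted p between 0.0508 and 0.113 and log2 fold changes between 0.21 and 0.27. It was also lost without a low-count filter (0.24, edgeR adjusted p = 0.0655).

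Fech, which inserts iron to complete heme, lies on chromosome 18. WT libraries had 504, 498, 563, 565 and 448 CPM, and Mir483Pat-KO libraries 581, 577, 729, 682 and 685 CPM. Again no Mir483Pat-KO library reached down to the WT range, and replicates 3 to 5 stood highest. The mean rose from 516 ± 49.4 to 651 ± 68.2 CPM (SD, n = 5 each), and the log2 fold change was 0.34 (SE 0.0859, edgeR adjusted p = 0.0342). The call was lost without WT replicate 1 or 5 or Mir483Pat-KO replicate 3, 4 or 5, with edgeR adjusted p from 0.0546 to 0.0957. Ppox, the enzyme between Cpox and Fech, measured 171 to 229 CPM among WT and 203 to 244 CPM among Mir483Pat-KO libraries (0.14, SE 0.0821, edgeR adjusted p = 0.344). Of its exon length, 17.5% overlaps B4galt3 on the other strand, and without WT replicate 2 its log2 fold change was 0.077.

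Values within the ranges of sample numbers are given next, where the lack of overlap of Alas1, Cpox and Fech follows from that in all libraries and adds nothing to it. In the lower range, Alas1 was 40.1 and 43.9 CPM in the Mir483Pat-KO libraries and 45.1 to 52.6 CPM in WT. Cpox was 577 and 578 CPM against 453 to 539 CPM, and Fech was 577 and 581 CPM against 498 to 565 CPM. In the upper range the single WT library had 45.7 CPM of Alas1, 463 of Cpox and 448 of Fech, and the 3 Mir483Pat-KO libraries had 33.0 to 39.4, 585 to 593 and 682 to 729 CPM. The log2 fold changes of all 9 were nearer to 0 in the lower range than in all libraries, or changed sign. There Alas1 had −0.23 (SE 0.0927), Alas2 0.11 (SE 0.0995), Cpox 0.20 (SE 0.0889) and Fech 0.12 (SE 0.0864). Uros had 0.086, Alad 0.026 and Ppox 0.0079, and Urod (−0.042) and Slc25a38 (−0.093) fell below 0. With the range as a covariate, Alas1 (−0.28, edgeR adjusted p = 0.0418) and Cpox (0.25, adjusted p = 0.0397) passed, and Fech (0.30, adjusted p = 0.0608) did not. In that fit the others that did not pass had 0.18 (Alas2), 0.17 (Uros), 0.085 (Alad), 0.082 (Ppox), 0.074 (Urod) and 0.052 (Slc25a38). No member passed in the smaller edgeR fit of the lower range, where the adjusted p of Alas1 was 0.303.

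**Figure D3:**
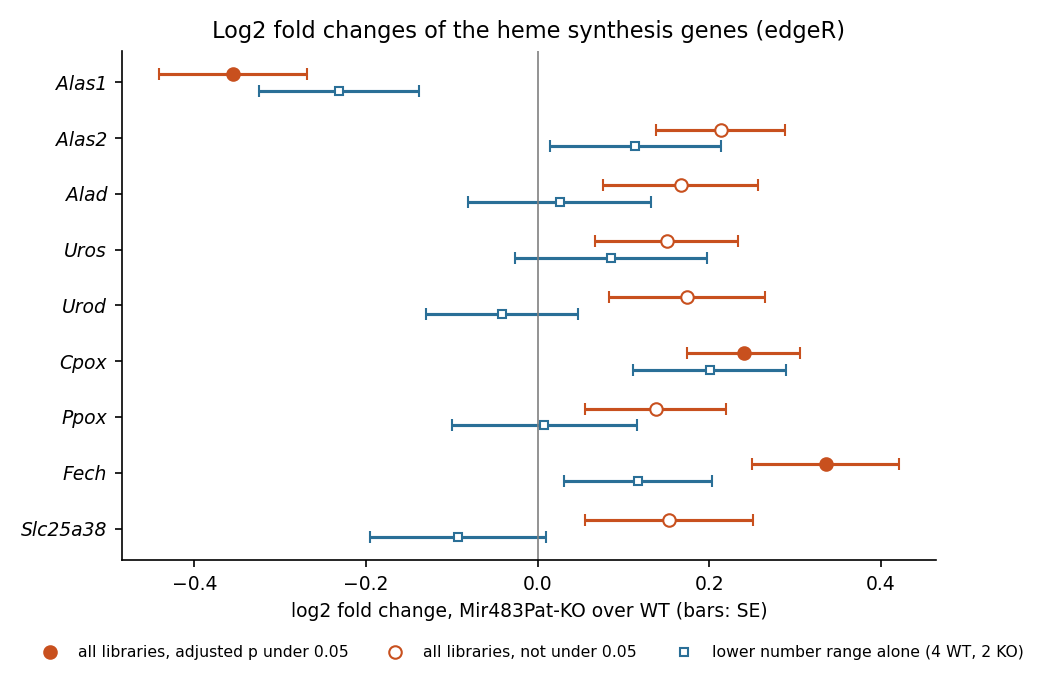
Log2 fold change, Mir483Pat-KO over WT, with SE bars, of the 9 genes from edgeR with all libraries (orange circles, filled at an adjusted p under 0.05) and with the lower range of sample numbers alone (blue squares, 4 WT and 2 Mir483Pat-KO). Alas1 lies below 0 and Cpox and Fech above 0 in both fits, while Urod and Slc25a38 cross 0 in the smaller fit.

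The levels of the 9 genes differed widely within WT liver. Per kilobase of the longest annotated transcript, Alas2 was highest at 471 ± 42.1 CPM per kb and Alas1 lowest at 14.3 ± 0.989 (SD, n = 5). Between them, with the WT range, came Cpox (159, 146 to 174), Urod (147, 134 to 159), Alad (89.0, 76.5 to 101), Fech (78.5, 68.1 to 85.9), Ppox (45.9, 38.7 to 51.9), Slc25a38 (30.5, 27.6 to 33.6) and Uros (27.7, 23.6 to 31.2). The WT ranges of Cpox and Urod overlapped, as did those of Alad and Fech and those of Slc25a38 and Uros, so the order within each of these pairs lay within the spread of the libraries. Per kilobase of all exons of the gene together, Alas2 and Alas1 kept the ends of the order at 399 and 7.86 CPM per kb. On that scale Cpox (74.1) moved below Urod (84.4) and Alad (84.1), and Fech (37.3) moved below Ppox (44.9). The length that is expressed in this tissue was not measured, so places in the middle of the order depend on the transcript chosen.

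**Figure D4:**
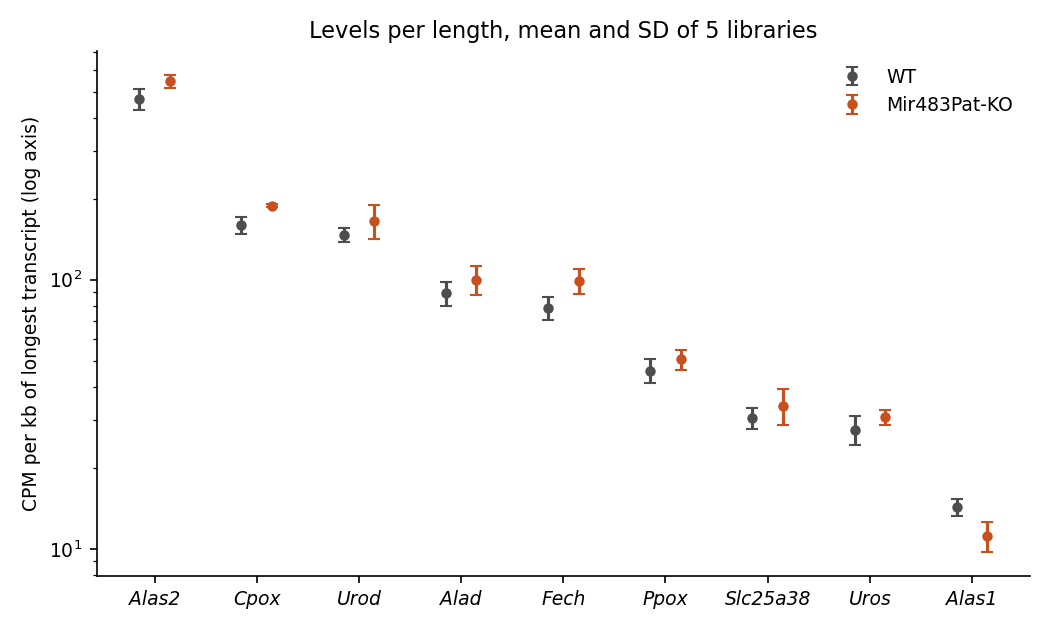
CPM per kilobase of the longest annotated transcript (log y axis) of the 9 genes, ordered by their WT mean, with the mean and SD of 5 WT (grey) and 5 Mir483Pat-KO (orange) libraries. Alas2 stands at 471 in WT and Alas1 at 14.3, and Alas1 is the gene whose Mir483Pat-KO mean lies below its WT mean.

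Across the 10 libraries the other 8 genes correlated positively with each other and negatively with Alas1. Pearson's r of log2 CPM lay between 0.507 and 0.941 over the 28 pairs without Alas1, and between −0.861 and −0.516 for Alas1 with each of the 8. With the group means subtracted, the 28 pairs lay between 0.344 and 0.922 and the 8 pairs with Alas1 between −0.659 (Alas2) and −0.181 (Uros). These values describe libraries that share a tissue and a scaling. The genes whose pattern over the 10 libraries was closest to Alas2, of 12550 compared, were Gabarapl2 (r = 0.983), Mylk3 (0.975), Dynlt1a (0.956), Slc48a1 (0.954) and Apbb2 (0.951). Slc48a1 encodes a heme transporter, and Gabarapl2 an autophagy protein of the ATG8 family. The genes closest to Alas1 were Sdha (0.955), Tars (0.949), Pon1 (0.938), Per1 (0.936) and Pprc1 (0.935), of which Pprc1 is a relative of Ppargc1a and Per1 a clock gene.

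Of the markers of the cell types that use the erythroid and hepatic enzymes, 3 erythroblast markers rose and 2 hepatocyte markers fell. Of 16 erythroblast markers tested, 15 had a log2 fold change above 0 (50.9% of all genes) and 3 passed, all higher (2.43% of all genes), with a median of 0.21. Hbb-bs, an adult beta globin, rose by 0.54 (SE 0.110, edgeR adjusted p = 0.0120). Kel, a red cell surface antigen, rose by 0.27 (SE 0.0738, edgeR adjusted p = 0.0434), and Rhag, a membrane protein of the Rh complex, by 0.32 (SE 0.0884, edgeR adjusted p = 0.0486). Without any 1 library other than Mir483Pat-KO replicate 1 the call of Kel was lost (edgeR adjusted p 0.0583 to 0.125), as it was with the range covariate (0.0637). That of Rhag was lost in 7 of 10 such fits, all but those without WT replicate 1 or 3 or Mir483Pat-KO replicate 1 (edgeR adjusted p 0.0536 to 0.115), and with GC content and length offsets (0.21, adjusted p = 0.107). In the lower range Hbb-bs had 0.23, Kel 0.12 and Rhag 0.15, and none passed in edgeR. The 12 erythroblast markers other than globins summed to 5046 to 6187 CPM among WT and 5594 to 7036 CPM among Mir483Pat-KO libraries, and the 4 globins to 12225 to 15981 and 14415 to 21605 CPM. Of 14 hepatocyte markers, 13 had a log2 fold change below 0, where 50.9% of all genes lay above 0, and 2 passed, both lower (2.76% of all genes). Cps1, the first enzyme of the urea cycle, fell by 0.65 on the log2 scale (edgeR adjusted p = 0.00407) and Apoa1, an apolipoprotein, by 0.30 (edgeR adjusted p = 0.0262), and the median was −0.14. Apoa1 lost its call without WT replicate 5 or Mir483Pat-KO replicate 3, 4 or 5 (edgeR adjusted p 0.0517 to 0.0557) and with GC content and length offsets (0.0881). In the lower range Cps1 had −0.57 and Apoa1 −0.24, and neither passed in edgeR. Fga, next by p, had −0.18 (edgeR adjusted p = 0.168), and −0.068 in the lower range. The hepatocyte sum was 271520 to 302170 CPM among WT and 250940 to 285950 CPM among Mir483Pat-KO libraries. In bulk liver, more or fewer cells of a type and more or less RNA per cell cannot be told apart.

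Counted against erythroblast markers, the 8 genes other than Alas1 were close to level against the non-globin markers and lower in Mir483Pat-KO against the globins. Per 1000 counts of the 12 non-globin erythroblast markers, Alas2 had 174 ± 5.62 counts for WT and 178 ± 8.04 for Mir483Pat-KO (SD, n = 5 each). The ratio of the group means was 0.966 to 1.11 for the 8 genes other than Alas1, with Fech at 1.11 and Cpox at 1.04. Fech had 93.7 ± 5.25 such counts for WT and 103.6 ± 4.75 for Mir483Pat-KO, with 4 of 5 Mir483Pat-KO libraries above all WT libraries. Per 1000 counts of the 4 globins, Alas2 had 71.3 ± 3.27 and 60.9 ± 7.79 counts, with 4 of 5 Mir483Pat-KO libraries below all WT libraries. Against the globins the ratio of the group means was 0.808 to 0.923 for the 8 genes. The globin sum by which they were divided was itself higher after the deletion, averaging 18562 CPM against 13470 for WT. For Urod (log2 fold change 0.17) and Slc25a38 (0.15) all 5 Mir483Pat-KO values per globin count were under the lowest WT value. The share of all genes that separate this way on the globin scale was not computed. Per 1000 hepatocyte marker counts, Alas1 had 0.169 ± 0.0121 for WT and 0.143 ± 0.0122 for Mir483Pat-KO, a ratio of 0.850, with 3 of 5 Mir483Pat-KO libraries below all WT libraries. Every marker in these sums had counts, and Ahsp, also listed as an erythroblast marker, was not matched to a row and is in no sum. Several of the markers passed the test themselves, so these ratios describe and do not correct, and the part that cell composition has in the differences was not tested.

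**Figure D5:**
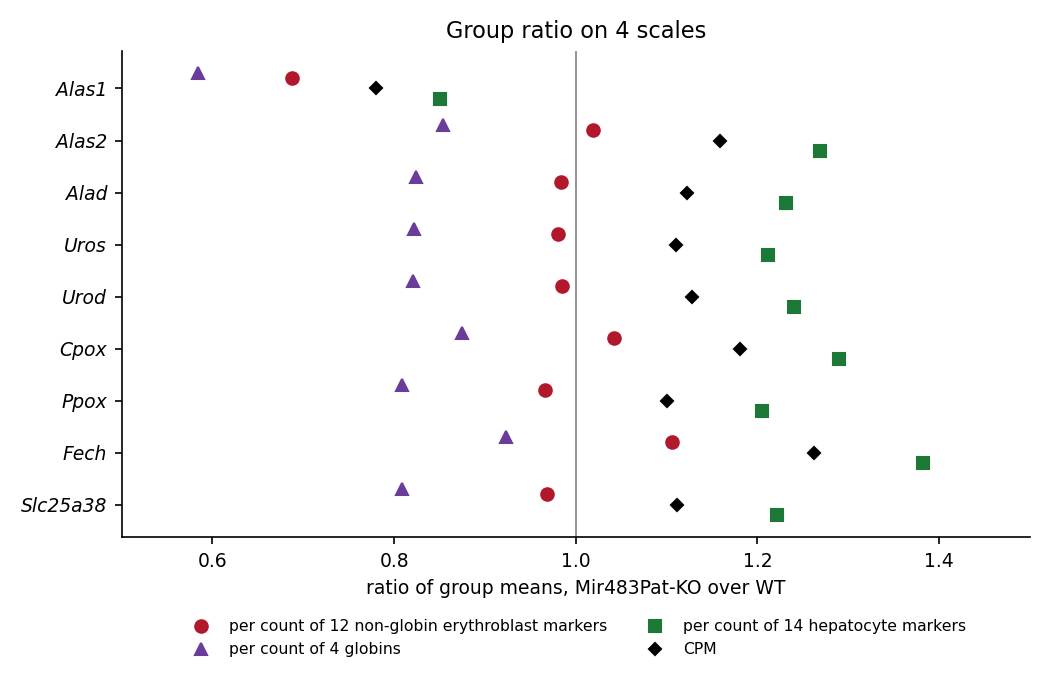
Ratio of the Mir483Pat-KO mean to the WT mean of each gene, as CPM (black diamonds), per count of 12 non-globin erythroblast markers (red circles), per count of 4 globins (purple triangles) and per count of 14 hepatocyte markers (green squares). The 8 genes other than Alas1 lie between 0.966 and 1.11 against the non-globin markers and between 0.808 and 0.923 against the globins, and Alas1 is below 1 on all 4 scales.

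Among 24 genes that feed iron and substrate to the pathway, 2 passed as higher and 0 as lower, against 2.43% and 2.76% of all genes. A log2 fold change above 0 was found for 19 of them (50.9% of all genes), with a median of 0.13. Slc25a37, the mitoferrin that imports iron into erythroid mitochondria, measured 985 to 1363 CPM among WT and 1395 to 1612 CPM among Mir483Pat-KO libraries and rose by 0.34 (SE 0.0837, edgeR adjusted p = 0.0298). Isca1, an iron-sulfur cluster assembly factor, rose by 0.30 (SE 0.0731, edgeR adjusted p = 0.0279). Slc25a37 lost its call without Mir483Pat-KO replicate 2, 3, 4 or 5 (edgeR adjusted p 0.0586 to 0.0799), and Isca1 without WT replicate 4 or 5 or Mir483Pat-KO replicate 3 or 4 (0.0602 to 0.0792). In the lower range they had 0.20 and 0.17, and neither passed in edgeR. Tfrc, the transferrin receptor, had 0.29 (SE 0.113, edgeR adjusted p = 0.139), with 4 of 5 Mir483Pat-KO libraries above all WT libraries. With the range as a covariate Tfrc had 0.45 and passed in edgeR (adjusted p = 0.0144), whereas it had 0.13 (adjusted p = 0.306) with GC content and length offsets and 0.19 without WT replicate 5. It passed in 3 of 19 alternatives.

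Genes of heme use, export and breakdown went both ways, with 2 of 15 passing as higher (2.43% of all genes), 2 as lower (2.76%) and a median of 0.057. Abcg2, a porphyrin and heme exporter, rose by 0.32 (SE 0.0720, edgeR adjusted p = 0.0201), and Tspo2, the erythroid relative of a mitochondrial porphyrin-binding protein, by 0.39 (SE 0.107, edgeR adjusted p = 0.0446). Slc46a1, a folate and heme carrier, fell by 0.38 on the log2 scale (SE 0.0867, edgeR adjusted p = 0.0201). Hp, the plasma haptoglobin made by hepatocytes, fell by 0.47 (SE 0.123, edgeR adjusted p = 0.0377), with 2 of 5 Mir483Pat-KO libraries below all WT libraries. With GC content and length offsets Abcg2 had 0.13 (adjusted p = 0.378), Slc46a1 −0.28 (0.0735) and Hp −0.40 (0.0507) in edgeR, and none of these passed. With the range covariate Tspo2 had 0.25 (edgeR adjusted p = 0.0919), and with limma-voom its adjusted p was 0.0503. In the lower range Abcg2 had 0.17, Tspo2 0.15, Slc46a1 −0.41 and Hp −0.46, and none passed in edgeR. Leaving out 1 library ended the call of Abcg2 for WT replicate 4 and Mir483Pat-KO replicates 3 and 4 (edgeR adjusted p 0.0502 to 0.0605) and that of Slc46a1 for Mir483Pat-KO replicates 2 and 4 (0.0517 to 0.0542). Of the fits without 1 library, the call of Tspo2 held only in those without Mir483Pat-KO replicate 1 or 2, and that of Hp only in those without WT replicate 2 or Mir483Pat-KO replicate 1 or 5, with edgeR adjusted p up to 0.134 and 0.0996 otherwise.

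Among regulators, Nr1i3 (CAR), a nuclear receptor known to raise Alas1 in adult liver, showed the largest decrease of the 8 listed for hepatic Alas1. WT libraries measured 41.5, 32.2, 39.8, 33.7 and 36.6 CPM and Mir483Pat-KO libraries 22.9, 14.4, 29.0, 17.3 and 16.9 CPM. Nr1i3 showed no overlap of the groups, as did 3.26% of all genes in this direction, and a log2 fold change of −0.87 (SE 0.148, edgeR adjusted p = 0.00455). It was the only gene of that list to pass (2.76% of all genes passed as lower, list median −0.12), and it passed without any 1 library and not in the lower range alone (−0.98, edgeR adjusted p = 0.0527). Hnf4a, a hepatocyte transcription factor, had −0.24 (SE 0.0679, edgeR adjusted p = 0.0540). Its groups did not overlap either, with 355 to 407 CPM in WT and 307 to 343 CPM in Mir483Pat-KO. Nr1d1, a clock repressor, had 0.75 (SE 0.293, edgeR adjusted p = 0.144). The value of Nr1d1 was 0.068 in the lower range alone, 0.28 with the range covariate and 0.49 without Mir483Pat-KO replicate 3. Hnf4a passed in 5 of 19 alternatives and lay between −0.27 and −0.16 over all of them, and Nr1d1 passed in 1, without a low-count filter. Ppargc1a, the coactivator named above, had −0.20 (SE 0.154, edgeR adjusted p = 0.468), passed in none of the 19 alternatives and lay between −0.32 and −0.042 over them.

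Of 8 erythroid regulators, 1 passed, as higher (2.43% of all genes), and 7 had a log2 fold change above 0 (50.9% of all genes), with a median of 0.060. Lmo2, a bridging partner of Gata1, rose by 0.30 (SE 0.0782, edgeR adjusted p = 0.0365). Its call was lost with the range covariate (0.25, edgeR adjusted p = 0.0691), in the lower range (0.15, 0.506) and in 8 of 10 fits that left out 1 library, all but those without WT or Mir483Pat-KO replicate 1 (0.0604 to 0.106). Bcl11a had 0.19 (adjusted p = 0.202) and Nfe2 0.092 (adjusted p = 0.445) in the same edgeR fit. Over the 19 alternatives Bcl11a lay between 0.14 and 0.24 and Nfe2 between 0.011 (lower range alone) and 0.12, with 0.056 without Mir483Pat-KO replicate 5. Gata1 itself had 0.046 (SE 0.0865, edgeR adjusted p = 0.800) and lay between −0.022 and 0.12 over them. Klf1, the member of this list below 0, had −0.12 (SE 0.0971, edgeR adjusted p = 0.504).

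Words read by Gata1 stood in 3 of the 11 promoter windows searched, a share close to that of all promoters. The RefSeq windows from 250 bases before to 50 after each start were searched on both strands for AGATAA and for AGATAG, and likewise for TGATAA and for TGATAG, and 29.8% of 32851 promoters held at least 1 of these words. Alas2 held 1 such word, 86 bases before its start, and Cpox held 3, of which 2 overlap, a number of words (at least 2) found in 7.77% of promoters. Uros held 2 before its second start. The windows of Alas1, Alad, Urod, Ppox and Slc25a38 held none, nor did the first start of Uros, and Fech was not searched here. CACCC, a short word read by Klf1, stood in 7 of the 11 windows and in 57.5% of all promoters. It occurred 3 times in Alas2, 4 times in Cpox and 2 times in the first window of Alas1, and 25.7% of all promoters held it at least 2 times. The stretches from 150 to 43 bases before the start are shown with the GATA words, here on the minus strand, in capitals. The third word of Cpox lies after its start and outside the stretch. Both stretches are on the plus strand of GRCm38.p6, at chrX:150547267-150547374 and chr16:58670058-58670165.
Alas2 promoter: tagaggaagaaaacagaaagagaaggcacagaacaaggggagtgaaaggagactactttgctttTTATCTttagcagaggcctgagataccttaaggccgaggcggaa
Cpox promoter: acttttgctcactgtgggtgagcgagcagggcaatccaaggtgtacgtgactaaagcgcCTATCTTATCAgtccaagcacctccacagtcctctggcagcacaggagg
Binding was not measured in these samples.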

How the data were processed

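Poly(A) RNA of 10 fetal livers was sequenced as paired ends. The authors aligned reads to GRCm38 with STAR and deposited raw, unnormalized counts for each Ensembl gene. The libraries were made with a stranded mRNA kit. The strand setting of the counting, the treatment of reads with several matches and trimming are not given in the sources used here. Depth was 10831350 to 14765880 counts per library, and floors for counts of 0 cover counting error only. Groups came from the sample labels.

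Counts were analyzed in R 4.3.3 with edgeR 4.0.16: filterByExpr, TMM, genotype as the only term, quasi-likelihood F-test and Benjamini-Hochberg correction over 14098 genes. The SE is the absolute log2 fold change divided by the square root of F. The procedure was tested on simulated data. Alternatives were RLE, DESeq2 1.42.0, limma-voom (limma 3.58.1), other low-count filters, the replicate number as a block, the sample number range as a covariate or its lower part alone, GC content and length offsets and each library left out. Gene models were those of GENCODE M21 (GRCm38). Figures were drawn with matplotlib 3.10.9.

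Equal replicate numbers were checked for pairing: deviations from the group means correlated over 0.1 in 2 of 5 same-numbered pairs, so the libraries were treated as unpaired. The labels do not give the litter of each fetus, so litter was not modelled and this check does not address it.

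The members, the lists and the tests were chosen with earlier results of these data known. Named were all 9 members, the 3 genes with the smallest p of each list, every gene of the iron supply and heme handling lists that passed, the 5 genes closest to Alas2 and to Alas1 by Pearson's r among genes averaging at least 1 log2 CPM, and Mir483. Results that need a withheld item were left out, and the item is in no list or sum. Gata1, Klf1 and Ppargc1a were named in addition, after their values were seen.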

Additional observations from a re-analysis of the deposited data

Results flagged for a closer look

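No value stood apart in Dixon's test at the 95% level among 88 groups of 5 libraries. These covered the Alas2 to Alas1 ratio and the CPM of the 9 heme synthesis genes and of the list genes named by their p or for passing. Gata1, Klf1 and Ppargc1a were not among them.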

How the results depend on the processing

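The count of 3 heme synthesis genes that passed was 2 to 4 with RLE, DESeq2, limma-voom, either other low-count filter, GC content and length offsets or the range covariate, 0 in the lower sample number range alone, and 0 to 2 when each library was left out in turn (0 without Mir483Pat-KO replicate 3 or 4). With the replicate block the count stayed at 3, while the number of all genes that passed went from 731 to 1338. The blocked test of the Alas2 to Alas1 ratio, by sign flips of the 5 same-numbered pairs, gave the same difference of 0.58 in the mean log2 ratio with an exact permutation p of 0.0625, the smallest it allows. The lower range alone gave 0.35. When each library was left out, that difference ranged from 0.52 to 0.66 and the exact permutation p stayed under 0.05. Urod (−0.042) and Slc25a38 (−0.093) changed sign in the lower range alone, and the causes were not tested. Of the 14 genes named from the other lists that passed, 11 passed with the range covariate, 9 with GC content and length offsets, 3 in every fit that left out 1 library and 0 in the lower range alone. The other 7 of the 9 genes kept their direction under all 19 alternatives. GC content and length offsets made 4 genes pass, all higher, and Alas1 did not pass. The number of all genes that passed was 731 in edgeR, 1160 with DESeq2 and 1258 without a filter, and 1189 with the range covariate and 23 in the lower range alone. The smallest difference among the 9 that passed with 5 libraries per group was 1.18-fold (Cpox).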

Other observations

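Marker lists of other cell types were read against the 2.43% of all genes that passed as higher and the 2.76% that passed as lower. None of the 4 erythroid progenitor markers passed in edgeR, and their median log2 fold change was −0.090. Over the 19 alternatives Kit, at −0.13, lay between −0.17 and −0.032, Cd34, at −0.12, between −0.27 and −0.013 (the latter without WT replicate 4), and Myb, at 0.099, between 0.060 (without WT replicate 2) and 0.17. Of 7 macrophage markers, Clec4f, a Kupffer cell lectin, fell by 0.46 (edgeR adjusted p = 0.0416), and it passed in 12 of 19 alternatives. Its call was lost without WT replicate 1, 4 or 5 or Mir483Pat-KO replicate 2, 4 or 5 (edgeR adjusted p 0.0569 to 0.0948) and in the lower sample number range alone (−0.39, adjusted p = 0.224). Cd5l, at 0.30, lay between 0.098 and 0.35 and passed in 2 of 19 alternatives, and Cd163, at −0.28, lay between −0.39 and −0.19.

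No endothelial marker of 6 passed in edgeR (Pecam1 −0.20, Cdh5 −0.19, Tek −0.17). Over the 19 alternatives these lay between −0.23 and −0.14, between −0.24 and −0.11 and between −0.24 and −0.080, with Cdh5 at −0.12 without Mir483Pat-KO replicate 4. No megakaryocyte marker of 4 tested passed in edgeR (Itga2b −0.24, Pf4 −0.19, Gp9 −0.15), and these were −0.14, −0.053 and −0.062 without WT replicate 1 and −0.37, −0.32 and −0.25 without WT replicate 3. No neutrophil lineage marker of 6 passed in edgeR (S100a8 0.29, Elane −0.17, Prtn3 −0.15). S100a8 passed in 2 of 19 alternatives, without WT replicate 1 (0.39, edgeR adjusted p = 0.0493) and without a low-count filter, and had 0.17 with GC content and length offsets. Elane and Prtn3 were −0.25 and −0.22 without WT replicate 3 and −0.091 and −0.041 with those offsets.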
